A study of Mus musculus with 9 samples.

Results

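The cerebellum of SmoA2 mice was compared directly with that of Smo/Smo mice, 3 arrays against 3, in a series of 9 arrays that also holds 3 of wild type. All came from mice of strain C57BL/6 at postnatal day 5. The sample labels give the tissue as brain, and the design text speaks of cerebella. SmoA2 mice carry a transgene for the SmoA2 mutant of Smoothened under a fragment of the Neurod2 promoter that is active in granule neuron precursors. The labels call the other line only Smo/Smo. The design text names SmoA1, another activated form under a like promoter fragment, as the only other mutant line, so Smo/Smo was taken as SmoA1 by elimination. The comparison was read over the 19147 genes with a single symbol, each by 1 probe set, and a level is the log2 of the array intensity.

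Smoothened sits in the membrane and relays Sonic hedgehog (Shh) into the cell. In the young cerebellum, Purkinje cells secrete Shh and granule neuron progenitors of the outer layer divide in response to it. Patched 1 holds Smoothened in check until Shh binds, and activated Smoothened lets Gli factors switch on their targets, among them Gli1 and Ptch1 themselves. The meninges that cover the outer layer send out Cxcl12 and retinoic acid and lay down part of its basement membrane. Purkinje cells, GABAergic interneurons and Bergmann glia arise from the ventricular zone and not from the granule lineage.

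Cerebellar markers read high in both lines, and part of the forebrain genes lay at background. The cerebellar factor Zic1 had mean log2 levels of 13.16 in SmoA2 and 13.21 in Smo/Smo, and the Purkinje cell protein gene Calb1 12.71 and 13.00. The forebrain factors Emx1 (3.63 and 3.78) and Emx2 (2.80 and 2.87) lay within the 2.23 to 5.57 that probe sets of Y-linked genes gave in female mice, an indication of background. Of 14 measured forebrain genes, 7 had every group mean at or under 5.57. The others did not, among them Fezf2 (6.25 in SmoA2 and 5.77 in Smo/Smo). Each line held 1 female and 2 males by its sex-linked probe sets. Array medians lay between 91 and 95.1 in linear intensity. The median standard deviation of a gene was 0.11 on the log2 scale in SmoA2 and 0.08 in Smo/Smo. Sample codes begin differently in Smo/Smo (SS) and in both other groups (EA within the code). The labels do not say what the codes stand for, so whatever differs with them and the genotype cannot be told apart. Each title has a code of its own, but nothing states separate litters or preparations, so p-values measure the spread between these samples, which may be in part technical. The transgene target gave no call. The probe set of Smo itself read 8.38, 8.40 and 8.83 in SmoA2 and 8.66, 8.69 and 8.66 in Smo/Smo, overlapping groups (log2 difference -0.13 ± 0.11, SE, n = 3 per group, limma adjusted p = 0.686), and it is not known if this probe set detects the transgene. Neurod2, whose promoter fragment drives the transgene, differed by -0.11 ± 0.05 (adjusted p = 0.401), with all SmoA2 arrays below all Smo/Smo arrays. Its other probe set gave -0.29 ± 0.07, also without overlap and not called (limma adjusted p = 0.0655 over every probe set).

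The groups named first hold part of the genes that separated the lines, by lists chosen with earlier results of these data known. Isl1, Pou4f1 and Myod1, factors of other neurons or of muscle, and 5 of 18 genes listed as Shh targets were higher in SmoA2. Gas1, which Shh signalling lowers, is among those 5. Lower in SmoA2 were 7 of 13 markers of GABAergic interneurons, 7 of 28 of meninges and fibroblasts, and the border macrophage markers Lyve1 and Mrc1. In fits without 1 array, the higher Shh targets fell to as few as 3. The lower interneuron and meningeal markers fell to as few as 3 and 4. In a further group Smo/Smo stood apart from both SmoA2 and wild type. In limma, 490 of the 19147 genes (2.56%) passed an adjusted p (Benjamini-Hochberg) of 0.05 and are named called here, 196 of them (1.02%) higher and 294 (1.54%) lower in SmoA2. At least a 2-fold difference was seen in 28 (0.146%) of the higher and 19 (0.0992%) of the lower genes. The median log2 difference over all genes was -0.003 and the median size 0.08. An unadjusted p under 0.05 was reached by 2741 of the 19147 genes, beside which such counts in the lists below are to be read. No called gene had overlapping arrays between the lines. The lines were free of overlap in the 490 genes, and in 3483 genes (18.2%) of all tested, 1555 (8.12%) with SmoA2 above and 1928 (10.1%) with SmoA2 below.

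Many calls depended on which arrays entered the fit. Of the 490, 140 stayed called whichever of the 9 arrays was dropped, 70 higher and 70 lower in SmoA2. The fit without Smo/Smo replicate 1 kept 206 of the 490 calls, that without Smo/Smo replicate 2 kept 167, that without Smo/Smo replicate 3 kept 196 and that without SmoA2 replicate 1 kept 231. A fit of only the 6 arrays of these lines called 231 genes, 221 of them among the 490. Called genes described below kept their call in all 9 of these fits unless fits that ended it are given.

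**Figure D1:**
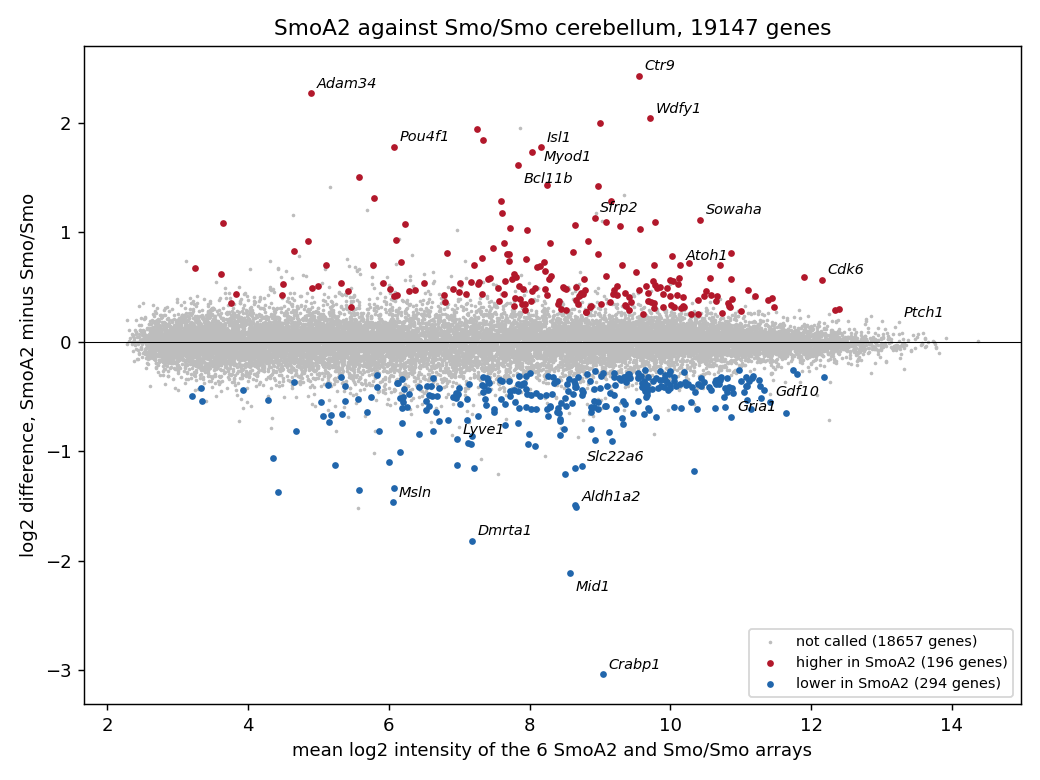
Each point is 1 of 19147 genes. The x axis is its mean log2 intensity over the 6 arrays and the y axis its log2 difference, SmoA2 minus Smo/Smo, with the 196 higher genes in red, the 294 lower in blue and the others in grey. Most of the grey points lie near 0, Ctr9 and Adam34 stand at the top, and Crabp1 and Mid1 at the bottom.

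Promoters of 5 genes are printed to show the start sites behind leading differences, with the letters of 3 searched motifs in capitals. Isl1 is among the leading neural factors, Cdk6 the Shh target with the smallest p, Aldh1a2 the leading meningeal gene and Crabp1 the gene with the largest log2 difference among those tested. Clec16a is 1 of the few called genes whose window holds the Gli motif. Each window of 300 bases covers the RefSeq start (build GRCm38.p6) and is written 5′ to 3′ on the strand of the gene: Isl1 at chr13:116309639-116309938 on the minus strand, and on the plus strand Cdk6 at chr5:3343643-3343942, Aldh1a2 at chr9:71215539-71215838, Crabp1 at chr9:54764498-54764797 and Clec16a at chr16:10545089-10545388.
Isl1: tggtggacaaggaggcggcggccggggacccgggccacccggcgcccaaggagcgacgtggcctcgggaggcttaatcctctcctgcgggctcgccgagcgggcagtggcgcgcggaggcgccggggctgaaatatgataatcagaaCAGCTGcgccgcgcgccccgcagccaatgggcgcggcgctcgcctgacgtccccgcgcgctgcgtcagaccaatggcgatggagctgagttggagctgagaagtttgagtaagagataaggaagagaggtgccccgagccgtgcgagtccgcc
Cdk6: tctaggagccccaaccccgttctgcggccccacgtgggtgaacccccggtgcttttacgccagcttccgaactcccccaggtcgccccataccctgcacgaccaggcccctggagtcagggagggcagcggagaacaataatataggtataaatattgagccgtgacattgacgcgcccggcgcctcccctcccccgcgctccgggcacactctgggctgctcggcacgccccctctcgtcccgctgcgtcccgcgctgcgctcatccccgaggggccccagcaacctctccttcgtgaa
Aldh1a2: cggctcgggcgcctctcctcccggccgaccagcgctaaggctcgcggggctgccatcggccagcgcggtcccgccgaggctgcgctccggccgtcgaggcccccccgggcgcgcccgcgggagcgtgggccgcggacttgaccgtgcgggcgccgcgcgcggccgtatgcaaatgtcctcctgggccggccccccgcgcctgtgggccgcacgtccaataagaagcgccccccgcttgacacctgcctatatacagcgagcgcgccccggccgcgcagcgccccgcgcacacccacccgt
Crabp1: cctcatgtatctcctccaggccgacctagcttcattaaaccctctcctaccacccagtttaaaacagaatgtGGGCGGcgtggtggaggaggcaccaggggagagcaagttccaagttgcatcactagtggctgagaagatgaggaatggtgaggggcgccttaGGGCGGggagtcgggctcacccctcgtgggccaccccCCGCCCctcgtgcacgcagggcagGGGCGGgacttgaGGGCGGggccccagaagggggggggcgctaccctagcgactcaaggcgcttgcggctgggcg
Clec16a: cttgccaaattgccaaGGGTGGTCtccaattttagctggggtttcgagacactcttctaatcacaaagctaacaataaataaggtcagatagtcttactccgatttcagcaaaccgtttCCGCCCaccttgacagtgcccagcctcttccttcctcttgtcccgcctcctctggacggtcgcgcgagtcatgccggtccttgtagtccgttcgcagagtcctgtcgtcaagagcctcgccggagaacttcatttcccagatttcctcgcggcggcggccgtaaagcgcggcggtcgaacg
The capitals mark GGGCGG or CCGCCC (the GC box), GACCACCC or GGGTGGTC (the core of the Gli consensus) and CAGCTG (an E box, the same on both strands). Crabp1 holds 5 GC boxes, Clec16a 1 GC box and 1 Gli core, and Isl1 1 E box, while the Cdk6 and Aldh1a2 windows hold none of them. Over the 15275 tested genes with a window, 0.956% hold the Gli core, against 2 of 146 higher genes (1.37%) and 3 of 239 lower genes (1.26%). The GC box is in 51.5% of these genes, 54.8% of the higher and 58.6% of the lower, and the E box in 18.2%, 24.7% and 21.3%. These shares describe letters in a window and were not tested.

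Several factors of sensory and motor neurons and of muscle were higher in SmoA2. Isl1, which motor and sensory neurons need, read 9.23, 8.75 and 9.18 in SmoA2 and 7.34, 7.16 and 7.34 in Smo/Smo, against 5.79 to 6.15 in wild type. Every SmoA2 array lay above every Smo/Smo array, and every Smo/Smo array above wild type (SmoA2 3.43-fold higher than Smo/Smo, log2 difference 1.78 ± 0.14, adjusted p = 0.000479). Its other probe set lay within the background range in all 3 groups and differed by 0.56. Pou4f1, a POU factor of sensory neurons, read 7.08, 6.88 and 6.92 in SmoA2 and 5.46, 5.16 and 4.93 in Smo/Smo. The Smo/Smo values are at background, so SmoA2 was at least 3.43-fold higher (log2 difference 1.78 ± 0.21, adjusted p = 0.00356).

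Myod1, which sets the muscle fate, read 8.90, 8.78 and 9.04 in SmoA2 and 7.22, 7.08 and 7.21 in Smo/Smo, whose arrays lay close to the 6.78 to 7.04 of wild type. The difference was 3.32-fold (log2 1.73 ± 0.09, adjusted p = 3.21e-05). Bcl11b, a zinc finger factor that Purkinje cells and many projection neurons use, read 8.79, 8.61 and 8.54 against 7.38, 7.29 and 6.42. Smo/Smo replicate 3 was the lowest of the 9 arrays, and SmoA2 was 3.06-fold higher (1.61 ± 0.22, adjusted p = 0.00652), with its other probe set at 1.04. Sox18, an SRY-related factor of developing vessels, was 2.08-fold higher (1.05 ± 0.07, adjusted p = 0.000182).

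Other genes of the same lists were mostly not called. Of 19 measured factors of motor and sensory neurons, Isl1 and Pou4f1 were higher, Lhx3 was lower and 16 were not called, with a list median of 0.11. The transmitter genes of motor neurons, Chat (0.05, adjusted p = 0.925, at background in both lines) and Slc18a3 (0.05, 0.946), were not called. The call of Lhx3 (-0.66, with SmoA2 at background) ended without any 1 of the Smo/Smo arrays or SmoA2 replicate 1 or 3 (the highest adjusted p being 0.0938). Of 23 myogenic genes, Myod1 and Myog were higher, Pax3 was lower and 20 were not called, with a median of -0.03. Pax3 (-0.42) lost its call in 7 fits (adjusted p up to 0.133). Myog lay within the background range in both lines (4.76 and 4.23), and its call held only without Smo/Smo replicate 1 or SmoA2 replicate 2 (the highest adjusted p being 0.118). Of 17 floor plate and notochord genes, Foxa2, Slit1 and Slit3 were higher and 14 were not called. Foxa2, the factor of the floor plate, read 7.87, 8.21 and 8.61 in SmoA2 and 7.29, 6.34 and 7.21 in Smo/Smo (2.44-fold, adjusted p = 0.0395), a call that ended in all 9 fits without 1 array (up to 0.103). The guidance genes Slit1 (0.51) and Slit3 (0.46) lost theirs in 8 and 2 fits (up to 0.145 and 0.0636).

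Other genes with large differences in the same direction code for surface, secreted and enzyme proteins. The ankyrin repeat gene Sowaha read 10.95, 11.03 and 10.97 in SmoA2 and 10.03, 9.66 and 9.90 in Smo/Smo, against 8.12 to 8.43 in wild type, so that both lines lay above wild type and SmoA2 2.17-fold above Smo/Smo (log2 difference 1.11 ± 0.11, adjusted p = 0.00152). Mgarp, a mitochondrial protein gene, was 3.59-fold higher (1.84 ± 0.16), and the cerebellin Cbln4 2.68-fold (1.42 ± 0.20). Adam34, a protease-family gene, was at least 4.82-fold higher, and Saa2, an acute-phase gene, at least 2.84-fold, both from Smo/Smo means (3.76 and 4.82) at background. The synaptotagmin Syt15 (1.29; its other probe set 0.15), the collagen-processing protease Adamts14 (1.07), the lectin-like Chodl (1.02), M-cadherin (Cdh15, 1.03) and hexokinase 2 (Hk2, 0.92) were also higher. Hk2 was the 1 member called among 16 genes of glycolysis and hypoxia, whose median was -0.07.

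**Figure D2:**
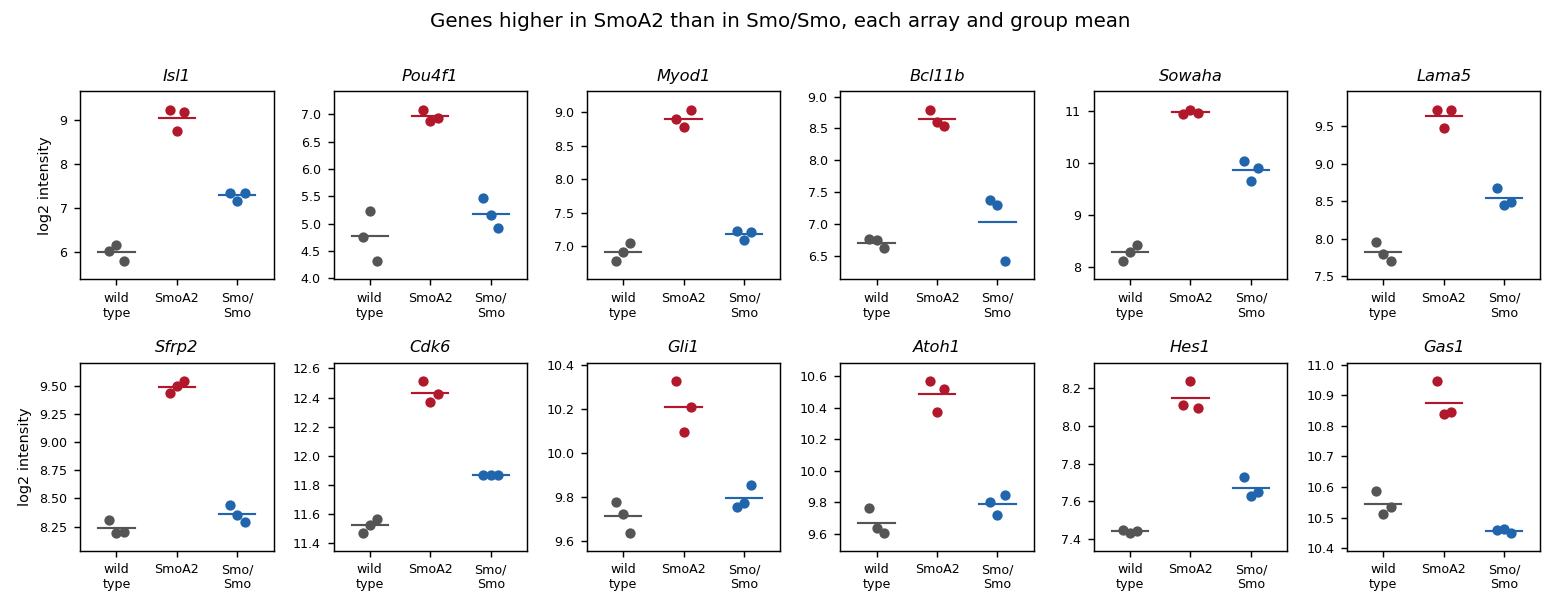
Each panel shows 1 gene higher in SmoA2, with the log2 intensity of the 3 arrays of wild type, SmoA2 and Smo/Smo as points and the group mean as a line; the y axes differ and do not start at 0. In all 12 panels the red SmoA2 points lie above the blue Smo/Smo points. Isl1, Myod1, Sowaha, Lama5 and Cdk6 are among the panels that also have Smo/Smo above all wild type arrays.

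Genes listed as Shh targets were in part higher in SmoA2 than in Smo/Smo. Of 18 measured, 5 were higher (27.8%, against 1.02% of all genes higher) and none lower, with a list median of 0.17. The 5 include Gas1, which Shh signalling lowers, so their number does not measure the output of the pathway. The kinase of the G1 phase Cdk6 read 12.51, 12.37 and 12.42 in SmoA2 and 11.87 in each Smo/Smo array, above 11.47 to 11.57 in wild type (1.48-fold, 0.57 ± 0.06, adjusted p = 0.00186). Of its other 5 probe sets, 2 gave 0.68 and 0.65, and 3 at lower levels gave 0.11 to 0.26. Hes1, a repressor that Notch and Shh both induce, was 1.39-fold higher (0.48 ± 0.06, adjusted p = 0.00436). The Shh co-receptor gene Gas1, which Shh signalling lowers, read 10.95, 10.84 and 10.84 in SmoA2, 10.46, 10.46 and 10.45 in Smo/Smo and 10.51 to 10.59 in wild type. SmoA2 thus lay above and Smo/Smo below every wild type array (0.42 ± 0.05, adjusted p = 0.00586).

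The pathway's own reporters gave calls that depended on the arrays, or no call. Gli1, the factor that the pathway induces, read 10.33, 10.10 and 10.21 in SmoA2 and 9.76, 9.77 and 9.85 in Smo/Smo (1.34-fold, log2 difference 0.42 ± 0.07, adjusted p = 0.0205). Its call ended without any 1 of the Smo/Smo arrays or SmoA2 replicate 1 (up to 0.089). The Shh-binding inhibitor Hhip gave 0.44 ± 0.09 (adjusted p = 0.0338), a call that ended in 6 of 9 fits, those without any Smo/Smo array, SmoA2 replicate 1 or 2 or wild type replicate 2 (up to 0.118). Ptch1, the Shh receptor, read 13.33, 13.34 and 13.33 in SmoA2 and 13.13, 13.15 and 13.18 in Smo/Smo. The groups did not overlap, but the difference of 0.18 ± 0.05 was not called (adjusted p = 0.14). The other probe sets of Ptch1 gave 0.06, with overlap, and 0.39, without overlap, and neither was called. Cyclin D1 (Ccnd1, 0.28, adjusted p = 0.465), Mycn (0.19, 0.225) and Sfrp1 (0.29, 0.115) were not called either. None of 20 pathway components was called, with a median of 0.003; at an unadjusted p under 0.05 there were 4.

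Markers of dividing granule neuron progenitors gave 1 call. Atoh1, the factor that these progenitors need, read 10.57, 10.37 and 10.52 in SmoA2 and 9.80, 9.72 and 9.84 in Smo/Smo, close to the 9.61 to 9.76 of wild type (1.62-fold, 0.70 ± 0.07, adjusted p = 0.00189). The other 16 of 17 progenitor markers were not called, Pax6 at -0.07 and Zic2 at 0.11 among them, and the median was -0.02. None of 36 cell cycle genes was called (4 at an unadjusted p under 0.05), with a median of 0.05 and a range from -0.15 to 0.36. With 2.56% of all genes called, 36 genes are too few to tell this from the share of all. Of the 36, 26 lay above 0 and 10 below. Without overlap 5 were above and 1 below, beside 8.12% and 10.1% of all genes. Among 15 G1 cyclin and Cdk inhibitor genes, Cdk6 was the higher and the retinoblastoma gene Rb1 the lower call (-0.33, adjusted p = 0.032). The call of Rb1 held only without SmoA2 replicate 1 (up to 0.116).

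Genes of granule neurons that have left the cycle gave 1 call in each list, both lower in SmoA2. Contactin 2 (Cntn2), an adhesion protein of parallel fibres, read 8.62, 8.42 and 8.82 against 9.41, 9.07 and 9.17 (-0.60 ± 0.11, adjusted p = 0.0294). Its call ended in 8 of 9 fits, all but that without SmoA2 replicate 3 (up to 0.092). Carbonic anhydrase 4 (Car4) read 9.25, 8.88 and 9.30 against 9.79, 9.76 and 9.85, with wild type between them at 9.46 to 9.47. It was 1.57-fold lower (-0.65 ± 0.10, adjusted p = 0.0122), a call that ended without Smo/Smo replicate 2 or 3 (up to 0.0584). The late GABA receptor subunit Gabra6 read 7.42, 5.86 and 7.55 in SmoA2 and 8.16, 7.92 and 8.37 in Smo/Smo, a difference of -1.21 ± 0.38 that was not called (adjusted p = 0.166). The list medians were both -0.06, over 17 and 16 genes. All SmoA2 arrays lay below all Smo/Smo arrays in 8 genes of the first list and 5 of the second, beside 10.1% of all genes. They lay above in 0 and 2 genes, beside 8.12% of all.

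GABAergic neurons of the ventricular zone lineage were the list with the largest share of calls. Of 13 interneuron markers, 7 were lower (53.8%, against 1.54% of all genes lower), none was higher, and the median was -0.42. As these are samples of whole tissue, a smaller share of a cell type in the sample, however it arose, and less RNA per cell cannot be told apart. This holds here and in the cell types that follow. The AP-2 factor Tfap2a read 7.42, 7.32 and 7.07 in SmoA2 and 7.85, 8.15 and 8.11 in Smo/Smo, where it spanned the 8.03 to 8.12 of wild type (1.70-fold lower, log2 difference -0.76 ± 0.11, adjusted p = 0.00774). Pax2, a factor of interneuron precursors, read 7.65, 7.54 and 7.77 against 8.23, 8.30 and 8.21 (1.51-fold lower, -0.59 ± 0.07, adjusted p = 0.0029), and its other probe set gave -0.28. Prdm13, a factor that acts with Ptf1a in GABAergic progenitors and was named after its values were seen, was 1.56-fold lower (-0.64 ± 0.07, adjusted p = 0.0024).

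Tfap2a and Pax2 kept their calls in all 9 fits, and the other 5 members of the 7 did not. Gad1, which makes GABA, read 10.82, 10.73 and 10.89 against 11.29, 11.21 and 11.33 (-0.46 ± 0.08, adjusted p = 0.0161), a call that ended without Smo/Smo replicate 1 or 3 or SmoA2 replicate 1 (up to 0.0724). The vesicular GABA transporter Slc32a1 gave -0.50 (ended without Smo/Smo replicate 1 or 2 or SmoA2 replicate 1, up to 0.103) and Tfap2b -0.47 (without Smo/Smo replicate 2 or 3, up to 0.06). Ptf1a (-0.38) and Neurog1 (-0.37) lost their calls in 8 and 4 fits (up to 0.165 and 0.0755). The list had 3 lower calls without any 1 of the Smo/Smo arrays or SmoA2 replicate 1, and up to 7 in the other fits.

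Purkinje cell markers were lower as well, with 1 in the opposite direction. Of 18, 4 were lower, Bcl11b was higher and 13 were not called, and the median was -0.28. Pcp2, a protein of Purkinje cells, read 11.28, 11.11 and 11.56 in SmoA2, 11.98, 11.96 and 11.96 in Smo/Smo and 11.87 to 11.96 in wild type (1.57-fold lower, -0.65 ± 0.10, adjusted p = 0.012). Dab1, the adaptor of reelin signalling (-0.42), the nuclear receptor Rora (-0.34) and Gad1, which both lists hold, were the others. None of the 4 was called in every fit, and without Smo/Smo replicate 3 none was called (Pcp2 up to 0.0565, Dab1 0.0644, Rora 0.142, Gad1 0.0724). Calb1 (-0.29, adjusted p = 0.0532) and Lhx5 (-0.35, 0.0519) lay just outside the threshold. None of 10 markers of the deep cerebellar nuclei (4 at an unadjusted p under 0.05) and none of 21 GABA-A and glycine receptor genes (7) was called. Of these 21 receptor genes, 9 had every group mean at or under background.

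Among 29 markers of Bergmann glia and astrocytes, 4 were lower and none higher, with a median of -0.13. The Wnt inhibitor Wif1 read 5.91, 5.64 and 5.39 in SmoA2 and 6.77, 6.51 and 6.68 in Smo/Smo (2.01-fold lower, SE 0.12 on the log2 scale, adjusted p = 0.00429). Gdf10, which Bergmann glia express, read 11.12, 11.09 and 11.22 against 11.65, 11.72 and 11.71 (1.46-fold lower, -0.55 ± 0.06, adjusted p = 0.00282). The homeodomain-only protein Hopx (-0.40) and tenascin C (Tnc, -0.32) lost their calls in 5 and 9 of the 9 fits, Hopx without any Smo/Smo array or SmoA2 replicate 1 or 2 (up to 0.0922 and 0.134). General markers of the lineage were not called, among them Fabp7 (-0.03), Slc1a3 (-0.27), Aqp4 (-0.19) and Sox9 (0.13). Of 17 oligodendrocyte genes only Cldn11 was lower (-0.39, adjusted p = 0.0319, lost in 7 fits, up to 0.128), and of 17 genes of ependyma and motile cilia none was called (6 at an unadjusted p under 0.05).

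Meningeal genes were lower in SmoA2, with 7 of 28 called (25%), none higher, 24 below 0 and a median of -0.31. Aldh1a2, with which the meninges make retinoic acid, read 7.83, 8.30 and 7.59 in SmoA2 and 9.45, 9.39 and 9.39 in Smo/Smo, which overlapped the 9.34 to 9.60 of wild type (2.84-fold lower, log2 difference -1.51 ± 0.15, adjusted p = 0.00186). Mesothelin (Msln) read 5.30, 5.53 and 5.16 against 7.01, 6.77 and 6.61. Its SmoA2 values are at background, so it was at least 2.76-fold lower (-1.46 ± 0.12, adjusted p = 0.000664). The organic anion transporter Slc22a6 was 2.20-fold lower (-1.13 ± 0.12) and the GABA transporter of the meninges Slc6a13 1.87-fold lower (-0.91 ± 0.11, adjusted p = 0.0038). The chemokine Cxcl12 read 10.59, 10.69 and 10.57 against 10.99, 11.09 and 11.02 (-0.42 ± 0.06, adjusted p = 0.00966), a call lost only without Smo/Smo replicate 2 (0.0535). Its other 2 probe sets gave 0.04 and -0.30.

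General fibroblast genes did not follow these transporters. Decorin (Dcn, -0.10, adjusted p = 0.59), lumican (Lum, 0.07, 0.884) and Col3a1 (-0.16, 0.246) were not called, and Bmp5 stood at 1.10 ± 0.34 (0.157) without overlap, Smo/Smo replicate 2 being lowest at 7.56. The forkhead factor Foxc1, which the meninges need to form, gave -0.47 and Islr -0.30, calls lost in 6 and 9 fits (up to 0.102 and 0.172). The number of lower meningeal calls ranged from 4 without Smo/Smo replicate 2 to 13 in another fit. Of 21 basement membrane genes, 20 lay below 0, but only Nid2 (-0.36) and Col4a4 (-0.33) were called. Nid2 lost its call in 8 fits, all but that without SmoA2 replicate 2, and Col4a4 in 4, without any 1 Smo/Smo array or SmoA2 replicate 1 (the highest adjusted p being 0.147 and 0.0818). The exception was laminin alpha 5 (Lama5), at 9.71, 9.47 and 9.72 in SmoA2 and 8.68, 8.45 and 8.49 in Smo/Smo, with wild type at 7.70 to 7.96 (2.13-fold higher, 1.09 ± 0.10, adjusted p = 0.00113). The T-box factor Tbx18 of mural and meningeal cells was 1.52-fold lower (-0.60 ± 0.09), and the protease Adamts3 1.53-fold lower (-0.62 ± 0.07).

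The retinoic acid genes held the largest difference of the comparison, in Crabp1, a carrier of retinoic acid inside cells. It read 6.97, 8.48 and 7.10 in SmoA2 and 8.94, 11.79 and 10.93 in Smo/Smo, with wild type at 7.21 to 7.62. The groups did not overlap, but the Smo/Smo arrays spread widely, with replicate 1 lowest (8.20-fold lower in SmoA2, -3.04 ± 0.65, adjusted p = 0.0474). The call held only without SmoA2 replicate 2 or Smo/Smo replicate 1 (up to 0.148). Of the 18 genes of the pathway, Crabp1, Aldh1a2 and Aldh1a1 (-0.38, lost in 8 fits, up to 0.157) were lower and none was higher. The receptors Rara (-0.20), Rarb (-0.18) and Rarg (-0.03) and the degrading enzyme Cyp26b1 (0.40, adjusted p = 0.113) were not called.

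Of 23 endothelial and mural genes, 4 were lower and none higher, with a median of -0.09. The thyroid hormone transporter of brain vessels Slco1c1 read 10.52, 10.46 and 10.52 in SmoA2, 10.94, 10.86 and 10.85 in Smo/Smo and 10.65 to 10.70 in wild type, which lay between the lines (1.31-fold lower, -0.39 ± 0.05, adjusted p = 0.00774). The receptors Tek and Kdr (both -0.36) lost their calls in 2 and 3 fits and the tight junction gene Cldn5 (-0.32) in 8, and without Smo/Smo replicate 3 only Slco1c1 was called (adjusted p up to 0.0636, 0.0828 and 0.157). Dio2, which activates thyroid hormone, showed the same order of groups, at 8.31, 7.86 and 8.12 in SmoA2, 8.54 to 8.67 in wild type and 8.97, 8.73 and 8.97 in Smo/Smo (1.74-fold lower, -0.80 ± 0.12, adjusted p = 0.00969). It was the 1 call among 9 thyroid hormone genes.

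None of 13 choroid plexus genes was called, nor had any an unadjusted p under 0.05 (median -0.33). In 9 of them all SmoA2 arrays lay below all Smo/Smo arrays, beside 10.1% of all genes. Transthyretin (Ttr) read 11.74, 11.84 and 11.93 in SmoA2 and 12.14, 12.03 and 12.04 in Smo/Smo, without overlap. Its standard error was 1.41, as wild type replicate 3 stood at 4.95 beside 11.39 and 11.26 and the fit shares 1 spread over all groups. Without that array 1 choroid plexus gene was called, Kl (adjusted p = 0.0346).

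Macrophage and microglia markers moved apart within 1 list of 17, with 3 higher and 2 lower (29.4%) and a median of 0.30. Both lower genes mark macrophages of the meninges and vessels. Lyve1, a hyaluronan receptor, read 6.52, 6.55 and 6.49 in SmoA2 and 7.36, 7.46 and 7.42 in Smo/Smo, as in wild type (7.41 to 7.46), and was 1.86-fold lower (-0.89 ± 0.05, adjusted p = 8.7e-05). The mannose receptor Mrc1 read 8.67, 8.46 and 8.52 against 9.17, 9.17 and 9.22 (1.55-fold lower, -0.64 ± 0.07, adjusted p = 0.00215). The third marker of these cells, Cd163, was at -0.23 and not called (adjusted p = 0.284).

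The higher genes of that list mark microglia. P2ry12, a purine receptor, read 9.25, 9.23 and 9.62 in SmoA2, 8.82 to 9.07 in wild type and 8.68, 8.49 and 8.55 in Smo/Smo (1.74-fold higher, 0.80 ± 0.12, adjusted p = 0.01). Its call was lost only without Smo/Smo replicate 2 (0.0518). Trem2 (0.58, lost in 5 fits, up to 0.117) and Aif1 (0.57, lost without any 1 of the Smo/Smo arrays, up to 0.0953) were the others, and without Smo/Smo replicate 2 none of the 3 was called. Cx3cr1 (0.46, adjusted p = 0.0542), C1qa (0.51, 0.141) and Csf1r (0.30, 0.0892) were not called, and Tmem119 stood at -0.09. Mpeg1, a pore-forming gene of phagocytes named after its values were seen, was 1.49-fold higher (0.57 ± 0.08, adjusted p = 0.00661). None of 16 interferon response genes, 14 antigen presentation genes and 33 MHC genes was called, and 5, 0 and 4 of them had an unadjusted p under 0.05. In 5, 1 and 19 of them every group mean was at or under background.

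**Figure D3:**
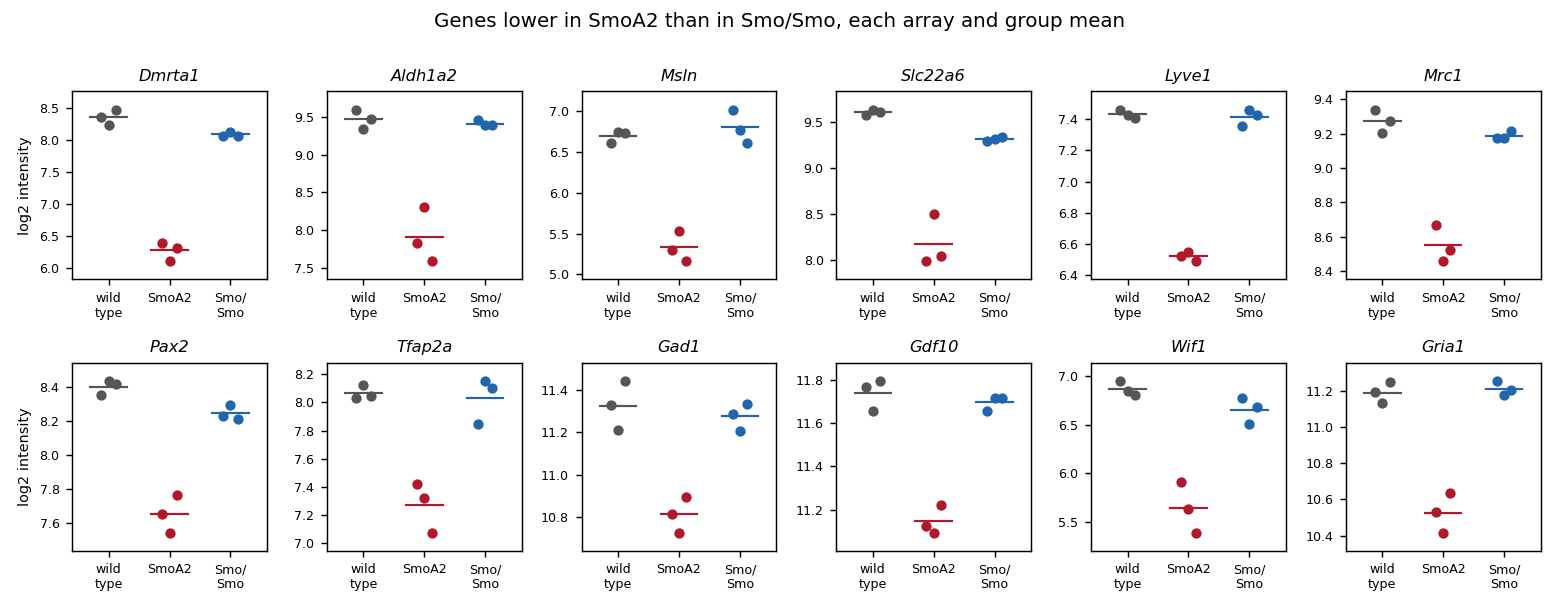
Each panel shows 1 gene lower in SmoA2, with the log2 intensity of the 3 arrays of each group as points and the group mean as a line; the y axes differ and do not start at 0. In all 12 panels the red SmoA2 points lie below the blue Smo/Smo points, which for Aldh1a2, Lyve1, Gad1 and Gria1 lie at about the height of wild type.

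Signalling pathways beside Shh gave few calls, in both directions. Secreted Wnt antagonists differed in opposite ways: Sfrp2 read 9.44, 9.50 and 9.54 in SmoA2 and 8.44, 8.35 and 8.29 in Smo/Smo (2.19-fold higher, log2 difference 1.13 ± 0.06, adjusted p = 5.39e-05), while Wif1 was lower. Of 28 Wnt genes the target Sp5 was also lower (-0.48, lost in 8 fits, up to 0.128), and the targets Axin2 (0.04) and Lef1 (-0.06) were not called. Of 18 Notch genes, Hes1 and the ligands Jag1 (0.31) and Dll3 (0.50) were higher and none was lower. The calls of both ligands ended in 7 fits, all but those without wild type replicate 1 or 3 (the highest adjusted p being 0.138). Of 26 BMP genes, 21 lay below 0 with a median of -0.19, and 2 were called, Gdf10 and the target Id1. Id1 read 10.02, 10.18 and 10.18 against 10.60, 10.65 and 10.50 (-0.46 ± 0.08, adjusted p = 0.0183), a call that ended without Smo/Smo replicate 1 or 2 or SmoA2 replicate 1 (up to 0.0874).

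Growth factor genes were split as well. Of 20 FGF genes, the receptor Fgfr4 was 1.54-fold higher (0.62 ± 0.07, adjusted p = 0.00211), Fgf5 was higher and Fgfr2 lower, the last 2 with calls lost in 8 and 7 fits (up to 0.155 and 0.109). Of 14 genes of insulin-like growth factors, the mRNA-binding protein Igf2bp1 read 7.81, 7.95 and 7.96 against 7.14, 6.85 and 7.16 (1.81-fold higher, 0.85 ± 0.10, adjusted p = 0.00356), with its other 2 probe sets at 1.02 and 1.01. Its relative Igf2bp3 was 1.26-fold higher (0.33 ± 0.06, adjusted p = 0.0267), a call lost in 6 fits (up to 0.115). The binding proteins Igfbp5 (-0.51, lost without any Smo/Smo array or SmoA2 replicate 1, up to 0.0764) and Igfbp3 (-0.36, lost without Smo/Smo replicate 1 or 2 or SmoA2 replicate 1, up to 0.0813) were lower. Pdgfa, a growth factor for oligodendrocyte precursors named after its values were seen, was 1.40-fold higher (0.49 ± 0.07, adjusted p = 0.00969).

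Adhesion, guidance and membrane genes followed no single direction. Of 55 cadherins and protocadherins, 4 were higher and 1 lower. Cdh20 read 12.27, 12.16 and 12.15 in SmoA2 and 11.62, 11.57 and 11.61 in Smo/Smo (1.51-fold higher, 0.59 ± 0.06, adjusted p = 0.00142). Cdh8 was 1.38-fold higher (0.46 ± 0.06), with Smo/Smo below and SmoA2 above all wild type arrays, Cdh15 is given above, Cdh7 was the fourth (0.33), and the lower gene was E-cadherin (Cdh1, -0.93). Cdh7 lost its call in 5 fits, those without any 1 Smo/Smo array, SmoA2 replicate 2 or wild type replicate 1 (up to 0.107), and Cdh1 in 8, all but that without SmoA2 replicate 2 (up to 0.12). Of 35 migration and axon guidance genes, 2 were higher (Slit1 and Slit3) and 3 lower (Dab1, Cxcl12 and Ackr3), of which Ackr3 (-0.33) lost its call in 8 fits, all but that without SmoA2 replicate 2 (up to 0.172). Without Smo/Smo replicate 2 none of the 3 was called. Of 26 semaphorins and plexins Sema3e was higher (1.07), a call that held only without Smo/Smo replicate 1 (up to 0.141).

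Few synaptic and channel genes were called, most of them lower in SmoA2, as were 294 of all 490 called genes. Of all genes, 2.56% were called and 1.54% were lower. The AMPA receptor subunit Gria1 read 10.53, 10.42 and 10.63 against 11.25, 11.18 and 11.21 (1.61-fold lower, -0.68 ± 0.07, adjusted p = 0.00174), with its other probe set at -0.73. It was 1 of 2 lower calls among 28 synaptic genes (7.1% called) and among 22 glutamate receptors (9.1%). Of 81 potassium channels, 4 were lower (4.9%) and none higher. Kcnn2, a calcium-activated channel of Purkinje cells, was 1.33-fold lower (-0.41 ± 0.06, adjusted p = 0.00661), and Kcna1 (-0.42), Kcnj6 (-0.62) and Kcnma1 (-0.29) lost their calls in 2, 2 and 9 fits (up to 0.0719, 0.0518 and 0.123). The sodium channel subunit Scnn1a was at least 1.76-fold lower (-0.81 ± 0.07, adjusted p = 0.000998), from a SmoA2 mean of 5.45 at background, and the calcium channel subunit Cacna2d1 1.47-fold higher (0.56 ± 0.06). The peptide gene Grp read 8.06, 7.85 and 8.13 against 8.95, 8.92 and 8.73 (1.81-fold lower, -0.85 ± 0.10, adjusted p = 0.0029), and Tac2, which codes for neurokinin B, was 1.51-fold lower. Of 350 solute carriers (4.6% called), 3 were higher and 13 lower, among the latter the lactate transporter Slc16a1 (-0.44 ± 0.06, adjusted p = 0.00774).

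Dmrta1, a DMRT-family factor, was the third by size among the lower genes. It read 6.40, 6.11 and 6.32 in SmoA2, 8.07, 8.13 and 8.07 in Smo/Smo and 8.25 to 8.48 in wild type (3.52-fold lower, -1.82 ± 0.09, adjusted p = 2.04e-05). Trp73, which codes for the p53 relative p73, was 2.17-fold lower (-1.12 ± 0.11), and its other probe set stood at -0.19. It and the death receptor gene Tnfrsf10b (-0.40, lost in 6 fits, up to 0.12) were the 2 calls among 21 p53 targets and apoptosis genes. The cholesterol-esterifying enzyme Lcat was 1.53-fold lower (-0.61 ± 0.08), with wild type between the lines.

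The remaining lists each held 1 to 3 calls. Of 12 genes of unipolar brush cells and the rhombic lip Plcb4 was lower (-0.26), of 14 forebrain genes Fezf2 was higher (0.48), and of 17 immediate early and stress genes the chaperone Hspa1b was lower (-0.41), calls lost in 9, 5 and 9 fits (up to 0.181, 0.0997 and 0.157). Of 20 acute phase and innate immune genes Saa2 and Cxcl1 were higher, the latter at background in both lines and with a call that held only without SmoA2 replicate 1 (up to 0.127). Of 19 neuropeptide and hormone genes Adcyap1, which codes for PACAP, was higher (0.82, lost in 5 fits, up to 0.0791) and Grp lower. Of 9 lipid carrier genes Abcg1 was higher (0.37, lost in 8 fits, up to 0.143) and Lcat and Pltp lower (Pltp -0.41, lost in 2 fits, up to 0.0636).

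**Figure D4:**
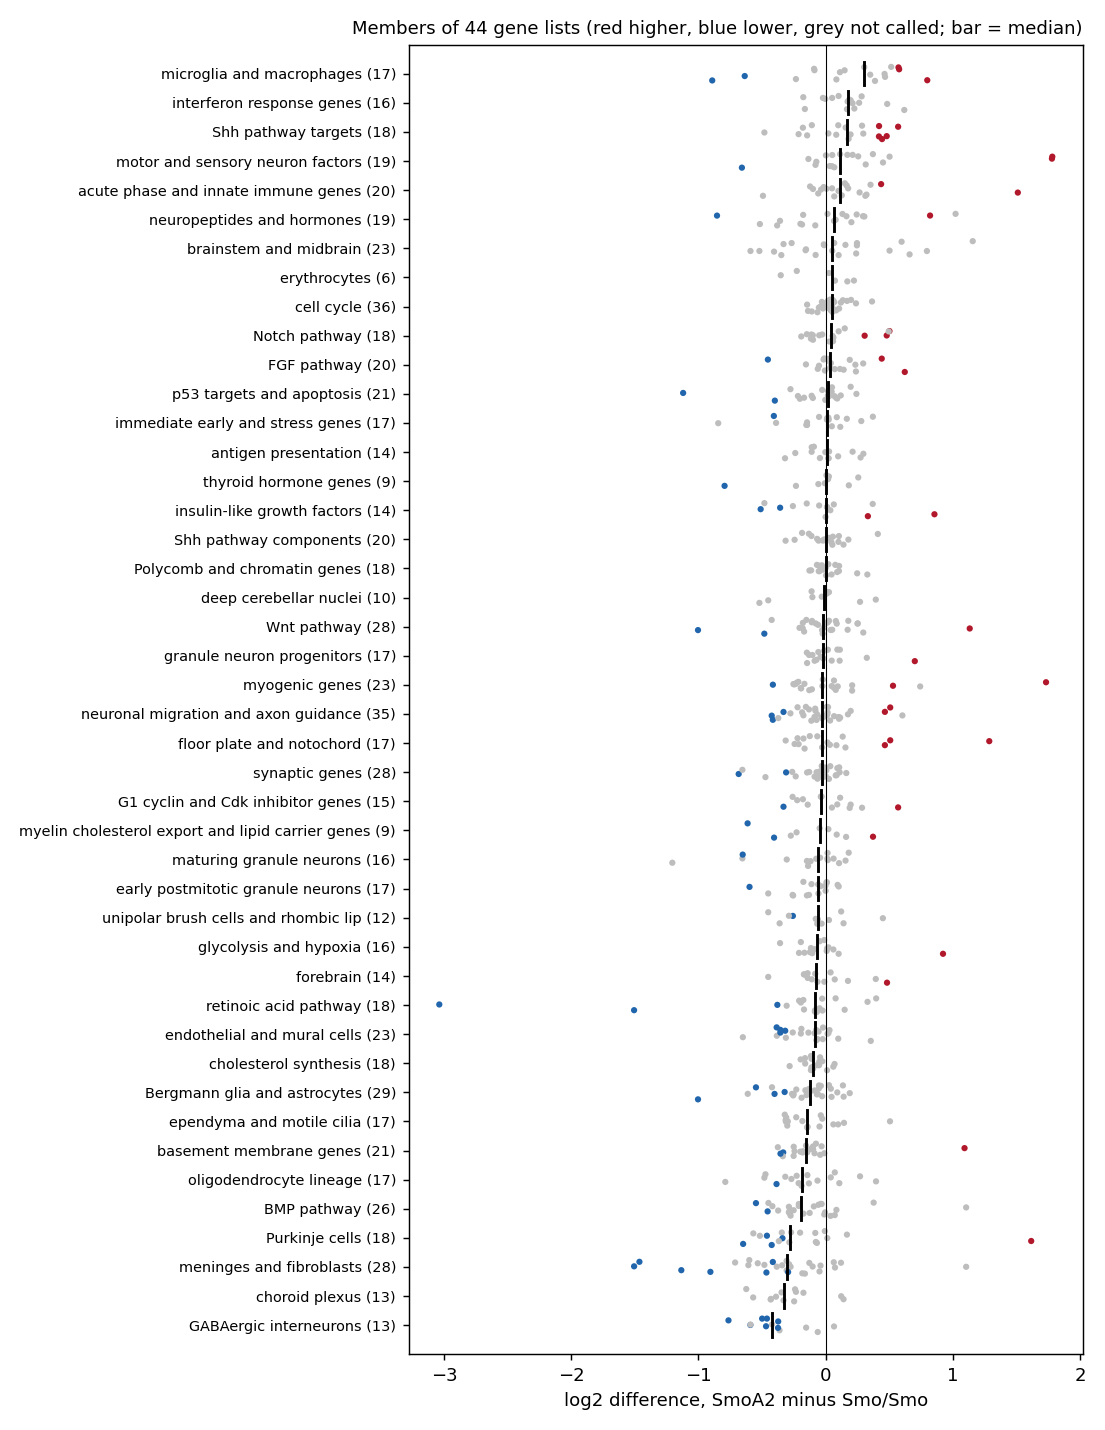
Each row is 1 of 44 gene lists with the number of measured members in brackets. The x axis is the log2 difference of each member, SmoA2 minus Smo/Smo, in red (higher), blue (lower) or grey (not called), with the list median as a bar, and rows are ordered by that median. GABAergic interneurons (median -0.42) and choroid plexus (-0.33) stand at the bottom, microglia and macrophages (0.30) at the top, and most medians lie near the -0.003 of all genes.

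In a last group Smo/Smo, and not SmoA2, stood apart from wild type. Ctr9, part of the PAF complex that travels with RNA polymerase, read 8.39, 8.29 and 8.33 in Smo/Smo, 10.72, 10.77 and 10.80 in SmoA2 and 10.73 to 10.93 in wild type (5.38-fold higher in SmoA2, log2 difference 2.43 ± 0.07, adjusted p = 6.02e-07). Its other 2 probe sets gave 0.10 and 0.05. Wdfy1 was 4.12-fold higher in SmoA2 (2.04 ± 0.07), with other probe sets at 1.35 and 0.32, and Pnma2 4-fold (2.00 ± 0.08). The cold-inducible RNA-binding gene Rbm3 was 2.70-fold higher (1.43 ± 0.20, adjusted p = 0.00821), with its other probe set at 1.02.

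The reverse order, with Smo/Smo above both others, was seen in several genes. The ubiquitin ligase Mid1 read 9.63, 9.29 and 9.96 in Smo/Smo and 7.66, 7.87 and 7.04 in SmoA2 (4.31-fold lower in SmoA2, -2.11 ± 0.24, adjusted p = 0.00302), while its other probe set gave -0.12. The formin Diaph3 was 2.81-fold lower (-1.49 ± 0.14), with its other 3 probe sets at 0.10, 0.21 and 0.32. The chaperone gene Hyou1 (-1.21 ± 0.13), Tmem254a (-1.15 ± 0.05), the tRNA-modifying enzyme Thg1l (-0.93 ± 0.08) and Clec16a (-0.82 ± 0.09) were lower, with Smo/Smo above all wild type and SmoA2 arrays. Of the 125 called genes with further probe sets, 102 had every other probe set on the same side of 0 and 32 had at least 1 other that was called in the same direction.

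The genes that differed were unevenly spread over the chromosomes. Chromosome 14 held 44 of the 490 called genes (9.02%), 21 higher and 23 lower, against 3.68% of the genes tested, and 6.27% of its 702 genes were called beside 2.56% of all. Pnma2, Diaph3, Tmem254a, Pou4f1, Syt15, Gdf10, Nid2, Shisa2 and Rgcc are among them. With its genes left out, an alternative added once the data had been seen, 407 genes were called, 161 higher and 246 lower.

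**Figure D5:**
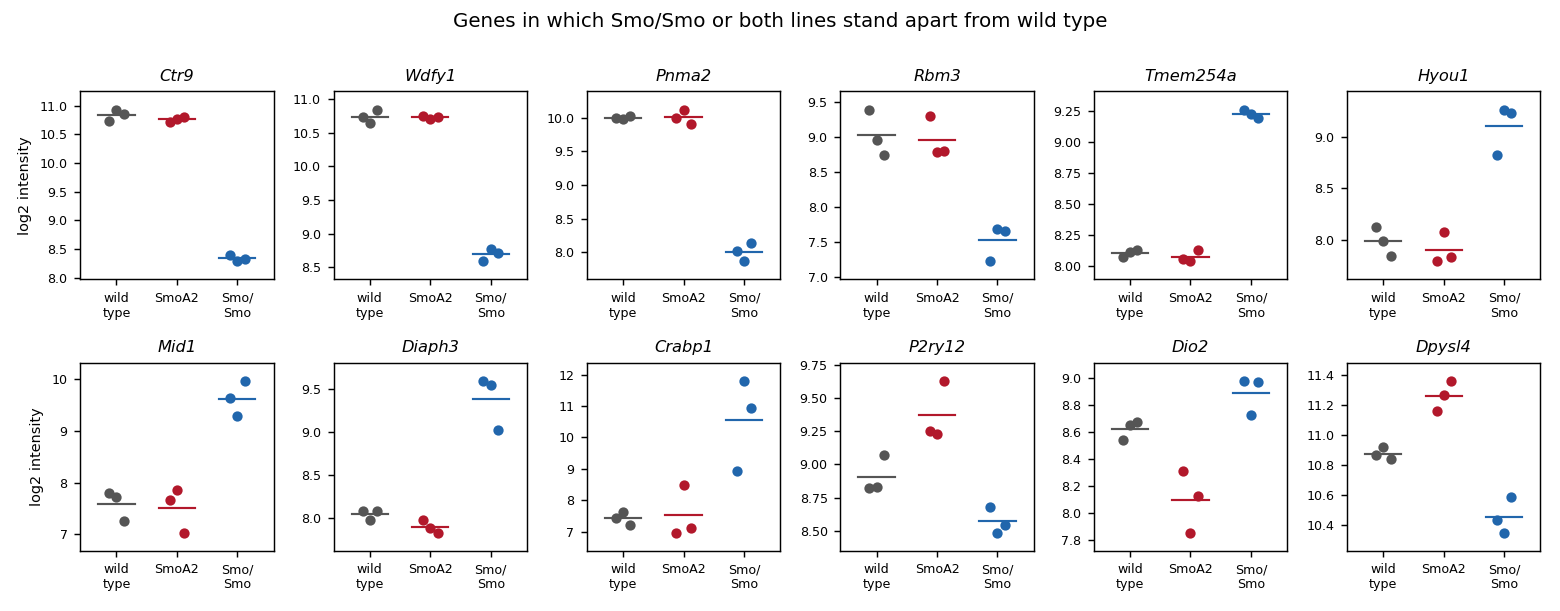
Each panel shows 1 gene with the log2 intensity of the 3 arrays of each group as points and the group mean as a line; the y axes differ and do not start at 0. From Ctr9 to Crabp1 the blue Smo/Smo points stand apart from wild type and SmoA2, and for P2ry12, Dio2 and Dpysl4 wild type lies between the lines.

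Large housekeeping families gave no call in limma, where 2.56% of all genes were called. None of 46 cytosolic and 68 mitochondrial ribosomal protein genes, 58 respiratory chain subunits and 35 proteasome subunits was called, with medians of 0.06, 0.04, 0.01 and 0.01. The 32 Hox genes, 23 brainstem and midbrain genes, 18 Polycomb and chromatin genes and 18 cholesterol synthesis genes also gave no call. However, 28 of the Hox genes and 12 of the brainstem and midbrain genes had every group mean at or under background. At an unadjusted p under 0.05 these 8 groups held 6, 1, 1, 0, 2, 4, 2 and 4 genes, beside 2741 of all 19147 genes. Among 854 olfactory receptors, which brain tissue hardly expresses, the count was 0 too, with 50 at an unadjusted p under 0.05.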

How the data were processed

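The authors deposited RMA-summarised probe set intensity on a linear scale, per the submitters' processing notes and the values. No version, array build or detection calls were used here. Log2 of each value was taken. The platform table gives a single symbol to 24478 of 38385 probe sets, more than 1 to 65 and none to 13842. A gene (19147, of which 3958 have more than 1 probe set) is read by whichever of its probe sets is brightest on average over the 9 arrays.

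R 4.3.3 with limma 3.58.1 (lmFit, eBayes) fitted a mean per group over 9 arrays, with no covariate. The threshold was 0.05 on p-values adjusted over all genes (Benjamini-Hochberg). Errors are standard errors. The members, 44 lists (954 entries, 823 measured), 47 name families, tests and alternatives were chosen with earlier results of these data known. Named genes were Smo, Gli1, Ptch1 and Neurod2, the 20 largest rises and 20 largest falls called without overlap and with a full symbol, and up to 4 called members of each list or family. The text gives those that each group turns on. RefSeq tables of GRCm38.p6 placed 19083 genes and gave promoters. Tested on simulated data (10 runs, 200 changed genes among 19147), the fit recovered 70.0% of log2 changes of 0.5 and 97.6% of changes of 1, with 4.63% of calls false. The number of arrays limits precision. Probe sets without a symbol were fitted apart. Figures used matplotlib in Python.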

Additional observations from a re-analysis of the deposited data

Results flagged for a closer look

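A difference between the lines is also a difference between their effects against the shared wild type arrays, and by that test the effects differed in 490 genes. In 75 of these, 30 higher and 45 lower in SmoA2, all SmoA2 arrays lay on one side of every wild type array and all Smo/Smo arrays on the other. They did so in 132 of all 19147 genes tested. This is an order of arrays and not a call against wild type. Dpysl4, a collapsin response mediator gene, read 11.16, 11.27 and 11.36 in SmoA2, 10.84 to 10.92 in wild type and 10.43, 10.35 and 10.59 in Smo/Smo. Rgcc, P2ry12, Gas1 and Cdh8 had the same order, and Dio2, Car4, Pcp2, Lcat, Itpka and Prex2 the reverse. None of these genes, Dpysl4 included, passed an adjusted p of 0.05 for Smo/Smo against wild type in limma. The log2 difference there ran from -0.42 in Dpysl4 (adjusted p = 0.0888) to values near 0 such as 0.04 in Pcp2 (0.948) and -0.09 in Gas1 (0.729).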

How the results depend on the processing

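The count of 490 called genes was within 1.5 times of its value with the mean of all probe sets, every probe set, quantile normalization, centring, array weights, sex as a covariate and without chromosome 14. It was 809 among genes with a mean log2 of at least 6, where fewer genes are tested, 795 with an intensity trend and robust eBayes, and 231 with only the 6 arrays. It was 142 at an adjusted p under 0.01 and 218 with a log2 difference of at least 0.5. Leaving out 1 array gave 170 to 467, the lowest without Smo/Smo replicate 2; the cause was not tested. No named gene changed direction under the alternatives run. Of their alternative fits, 2578 kept the side of the threshold, 583 lost a call and 49 gained one. List medians moved by more than the replicate spread in 60 alternative values and by less in 732. No paired analysis was possible because the labels give no replicate numbers and the sample codes share none between the lines.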

Other observations

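Among the 13842 probe sets without a gene symbol, a separate limma fit called 90 higher and 75 lower in SmoA2 (1.19%). Other genes called in every fit without 1 array, named after their values were seen, included the translation repressor Eif4ebp1 (1.75-fold higher in SmoA2), the membrane proteins Shisa2 (1.65-fold) and Lrig3 (log2 difference 0.58), and the BH3-only death gene Hrk (1.56-fold). Lower in SmoA2 were the pyroptosis gene Gsdmd (1.74-fold), the copine Cpne6 (1.63-fold), the adhesion gene Kirrel2 (1.52-fold), the proteoglycan Spock3 (1.53-fold) and Txnip, the thioredoxin-binding protein (1.52-fold).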
